A study of Mus musculus with 6 samples.

Results

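The genes encoded by mitochondrial DNA were taken from the count table of an RNA sequencing study of mouse aorta as every row whose symbol starts with mt-. This gave 37 of the 55341 genes listed, namely 13 mRNAs, 2 ribosomal RNAs and 22 tRNAs, the full gene set of the mouse mitochondrial genome. Aortic vessels of 3 miRNA-26b-/- mice (libraries M2626, M2627 and M2628) and 3 miRNA-26b+/+ mice (M2629, M2630 and M2631) had been sequenced, as 1 library per mouse, at 8 weeks of age on chow. The knockout labels read KO miRNA26B and the control labels naive, and all 6 name the strain C57BL/6NCrl. The microRNA had been targeted in embryonic stem cells of another strain within an intron of Ctdsp1, and the floxed allele was deleted with tamoxifen and CreERT2, after which the Cre gene was bred out; the promoter that drove Cre is not given in the sources used here. The line was founded by male chimeras crossed to C57BL/6 females, which mixed this background with that of the stem cells. Elsewhere the study places all mice on a C57BL/6 background. A male carrier was later mated to a female with a Flippase transgene, and Cre mice were crossed in after that. The strain of the Flippase and Cre mice is not given. Mitochondrial DNA is inherited from the mother, and its strain of origin in the knockout mice was not tested. For the wild type mice the sources used here state neither tamoxifen nor littermate status. The comparison asks how gene expression in the vessel differs between knockout and naive mice.

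Mitochondrial DNA is a small circular genome that each cell carries in many copies. Its mRNAs encode core subunits of respiratory complexes I, III and IV and of ATP synthase, its ribosomal RNAs form the core of the mitochondrial ribosome, and its tRNAs serve translation inside the organelle. Both strands are transcribed as long precursors that are cut at the tRNAs, so neighbouring genes share a primary transcript. All other respiratory chain subunits, and the enzymes that copy, transcribe and process mitochondrial RNA, are encoded in the nucleus. In the vessel wall, mitochondrial transcripts come from smooth muscle, endothelium and fibroblasts, and from any attached perivascular fat or muscle, tissues known for their many mitochondria. In bulk RNA, fewer cells of a type and less RNA per cell cannot be told apart.

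The libraries held between 25.7 M and 33.3 M counts, and the TMM factors ran from 0.982 to 1.015. Mir26b itself received 0 counts in each of the knockout libraries and 0, 20 and 0 in the wild type libraries, too few to check the genotypes. The labels name endothelial cells, but the study describes whole pieces of arch and thoracic aorta. The 10 smooth muscle markers summed to between 34560.0 and 46070.0 CPM (the count scaled to a common, TMM-corrected library total) and the 10 endothelial markers to between 568 and 1851 CPM, so the samples are called aortic vessels here. No label gives a batch or a day of preparation, and p-values measure the spread between these 6 libraries.

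Of the 37 genes, 27 passed the filter on low counts, which asked for over 1 CPM in 2 or more libraries and a total of no less than 2 counts. They were 8 mRNAs, both ribosomal RNAs and 17 tRNAs. The other 10, namely 5 mRNAs and 5 tRNAs, had at most 46 counts in a library. The mRNAs fell into a group of 7 with at least 11924 counts in each library (mt-Nd1, mt-Nd2, mt-Co1, mt-Nd4, mt-Nd5, mt-Nd6 and mt-Cytb) and a group of 6 that never passed 149 counts. The low group was mt-Co2, mt-Co3, mt-Atp6, mt-Atp8, mt-Nd3 and mt-Nd4l, which lie next to each other on the genome. In no library did mt-Co3 or mt-Atp8 have a count. mt-Atp6 and mt-Nd4l had 1 count in M2627 alone, and mt-Co2 had 1 in M2627, 24 in M2629 and 1 in M2630. The limit that a count of 0 allows, 3 counts, corresponds to between 0.09 and 0.117 CPM of the uncorrected library totals, for counting error only.

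This stretch has a near-identical copy in the nuclear genome. On GRCm38, positions chrM:6381-11042 of mitochondrial DNA (4662 bases) are matched by 7 annotated pseudogenes in a row at chr1:24611535-24616197 on the reverse strand: Gm29216, Gm28661, Gm10925, Gm28437, Gm28438, Gm10222 and Gm28439. Over the 4149 bases that could be aligned, the copies and their mitochondrial originals differed at 7 positions, an identity of 99.83%. The copies of mt-Co2 (Gm28661), mt-Atp6 (Gm10925), mt-Co3 (Gm28437), mt-Nd4l (Gm10222) and of the first 876 bases of mt-Nd4 (Gm28439) had 0 differences. Of the 7 differences, 6 lay at the edge of the tract, in mt-Co1, and 1 lay at the start of mt-Nd3. The pairs are printed below from the GENCODE transcripts of GRCm38, 5′ to 3′, because they hold every difference in the aligned bases. The stretch on chromosome 1 spans 4663 bases, so the copy is not colinear throughout, and what lies between the aligned bases was not compared. Capitals mark the bases that differ, and positions count from 1 at the 5′ end of the mitochondrial gene.

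mt-Co1, positions 1054 to 1090, chrM:6381-6417, forward strand, with T1056A, C1057T, A1059G, A1060G, C1062A and A1066T in the nuclear copy
mt-Co1: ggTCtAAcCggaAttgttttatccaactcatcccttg
Gm29216, chr1:24616161-24616197, reverse strand: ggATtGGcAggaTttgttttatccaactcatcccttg
mt-Nd3, positions 1 to 33, chrM:9459-9491, forward strand, with T3C in the nuclear copy
mt-Nd3: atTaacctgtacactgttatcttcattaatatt
Gm28438, chr1:24613087-24613119, reverse strand: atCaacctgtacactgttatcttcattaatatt

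Position in this tract and the counts moved together. The 11 genes wholly inside it (6 mRNAs and 5 tRNAs) reached 149 counts at most in a library, and 7 of them never had more than 2. mt-Co1 lies inside with 492 of its 1545 bases and mt-Nd4 with 876 of its 1378, and both were among the abundant mRNAs. The 5 mRNAs wholly outside had between 11924 and 231387 counts. Inside the tract, mt-Nd3 had the largest total, with 117, 28 and 149 counts in the knockout and 71, 119 and 0 in the wild type libraries. mt-Tg, the glycine tRNA that ends 1 base before it, had 71, 28 and 123 against 46, 96 and 0. Besides the difference at the start of mt-Nd3, the copy changes length between the aligned bases of mt-Nd3 and mt-Nd4l, where mt-Tr lies. mt-Tr had 46, 0 and 26 counts against 25, 23 and 0. Which difference these counts lie at was not tested. The nuclear copies held between 0 and 14 counts per library each, so the missing counts were not listed under the pseudogenes either. The counting command named no option for reads that align to several places, which the program then leaves out by default; whether this set the zeros was not tested, as alignments were not used here. The 6 mRNAs of this stretch are therefore reported as not measurable in this table, and no statement is made about their expression.

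**Figure D1:**
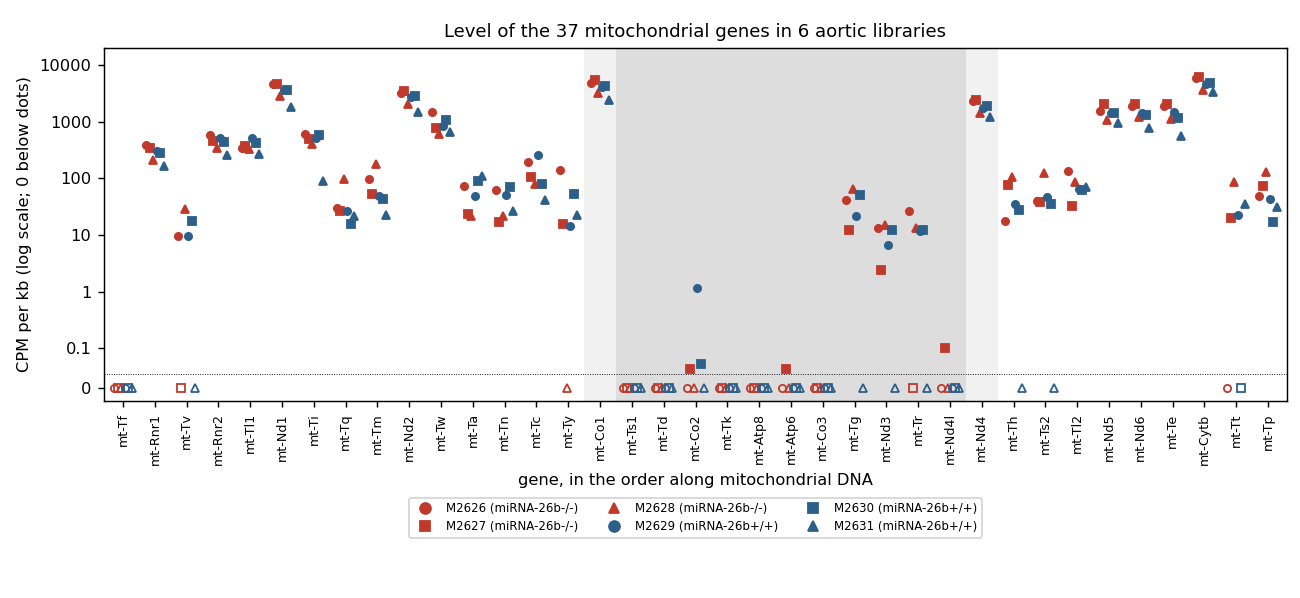
Level of each of the 37 genes in CPM per kb of gene length (log scale) in the order of the genes along mitochondrial DNA, with red points for the 3 miRNA-26b-/- and blue points for the 3 miRNA-26b+/+ libraries and open symbols below the dotted line for 0 counts. Dark grey marks the 11 genes wholly inside the stretch with a nuclear copy and light grey the 2 genes partly inside it; the 7 abundant mRNAs stand outside or at its edges.

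Mitochondrial genes took between 1.501% and 3.27% of the counts of a library. The shares were 3.05% in M2626, 3.27% in M2627 and 1.95% in M2628, against 2.53% in M2629, 2.52% in M2630 and 1.501% in M2631. The mean was 2.76% ± 0.707 in miRNA-26b-/- and 2.18% ± 0.591 in miRNA-26b+/+ mice (SD, n = 3 each). The difference of 0.572 percentage points was smaller than the spread within either group, with overlapping groups (p = 0.4 in a two-sided exact permutation test, where 0.1 is the smallest possible). Counting error was small beside this spread: the 95% Wilson interval ran from 3.04% to 3.05% for M2626 and from 1.497% to 1.506% for M2631. In each genotype 1 library was low, M2628 and M2631. Without M2631 the difference was 0.231 percentage points, and without M2628 it was 0.975 (exact permutation test, p = 0.8 and 0.2).

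The 3 kinds of RNA had much the same pattern across libraries. The mRNAs made up 95.1% of the mitochondrial counts in miRNA-26b-/- and 95.0% in miRNA-26b+/+ mice, the ribosomal RNAs 3.77% and 3.94%, and the tRNAs 1.10% and 1.01%. As a share of the whole library, the mRNAs held 2.62% ± 0.681 against 2.07% ± 0.555 (exact permutation test, two-sided, p = 0.4, n = 3 each). For the ribosomal RNAs the values were 0.103% ± 0.0261 and 0.0872% ± 0.0292 (exact permutation p = 0.6), and for the tRNAs 0.0296% ± 0.00571 and 0.0224% ± 0.00813 (exact permutation p = 0.4). M2631 was the lowest library for each of the 3 kinds.

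**Figure D2:**
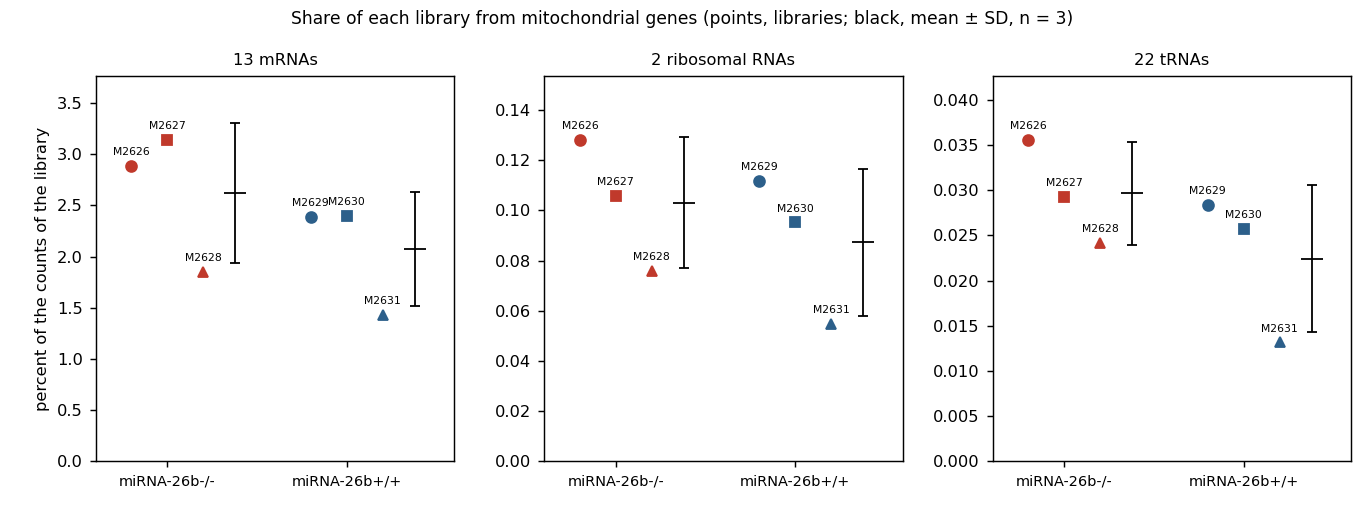
Percent of the counts of each library from the 13 mRNAs, the 2 ribosomal RNAs and the 22 tRNAs, by genotype; coloured points are libraries and black marks the mean ± SD (n = 3). The groups overlap in each panel, with M2628 lowest of the miRNA-26b-/- and M2631 lowest of the miRNA-26b+/+ libraries.

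Gene by gene, none of the 27 mitochondrial genes tested had an adjusted p under 0.05 in the quasi-likelihood test of edgeR, where 1 of the 16017 genes did (0.00624% of all genes tested). At an unadjusted p under 0.05 there were 4, mt-Nd6, mt-Te, mt-Tm and mt-Tp, each higher in miRNA-26b-/- mice. With the earlier quasi-likelihood method of edgeR there were 2. The background at that level was 6.47% of all genes in both directions and 3.4% higher in the knockout. The smallest adjusted p among the 27 was 0.736. In miRNA-26b-/- mice 23 of the 27 had the higher mean and 4 the lower, and the median log2 fold change was 0.35 beside 0.01 over all genes tested. The genes share precursors and libraries, so these 27 values are not independent of each other. In 3 of the 27, mt-Tm, mt-Tp and mt-Tq, the libraries of the groups did not overlap, each higher in the knockout. Over all genes tested this was so for 11.5%, and for 5.65% in that direction. The number at an unadjusted p under 0.05 was 9 without M2628, beside 1692 of all 15654 genes tested then. It was 0 without M2631, beside 686 of 15726. DESeq2, limma voom, the likelihood ratio test and the earlier quasi-likelihood method of edgeR gave 2 each, beside 840, 847, 795 and 802 of all 16017 genes.

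Of the complex I subunits, which pass electrons from NADH to ubiquinone, 4 were abundant besides mt-Nd6, which is described with its neighbours further on. mt-Nd1 had 4399, 4419 and 2659 CPM in the miRNA-26b-/- and 3395, 3406 and 1762 CPM in the miRNA-26b+/+ libraries. The low library of the knockout lay below 2 of the wild type libraries, so the groups overlapped. The means were 3826 ± 1011 and 2854 ± 946 CPM (SD, n = 3 each), and the log2 fold change was 0.42 with a standard error of 0.23 (edgeR, adjusted p = 0.79). mt-Nd2 had 3339, 3596 and 2156 CPM against 2787, 2913 and 1562.5 CPM, and its log2 fold change was 0.32 (standard error 0.22, edgeR adjusted p = 0.853). mt-Nd4, counted in part inside the copied stretch, had 3203, 3309 and 1920.1 CPM against 2415, 2622 and 1695 CPM. Its log2 fold change was 0.33 (standard error 0.20, edgeR adjusted p = 0.825). mt-Nd5 had 2840.0, 3671 and 1970.3 CPM against 2609.9, 2602 and 1707 CPM, and its log2 fold change was 0.29 (standard error 0.20, edgeR adjusted p = 0.858). In each of these 4 genes M2627 was the highest library and M2631 the lowest. mt-Nd3 was listed at 4.57, 0.835 and 5.28 CPM against 2.32, 4.34 and 0 CPM and belongs to the genes inside the copied stretch (log2 fold change 0.65, standard error 0.89, edgeR adjusted p = 0.945).

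mt-Cytb encodes cytochrome b, the only mitochondrially encoded subunit of complex III, which hands electrons from ubiquinol to cytochrome c. It had 6851, 6898 and 4069 CPM in the miRNA-26b-/- and 5232, 5536 and 3737 CPM in the miRNA-26b+/+ libraries, means of 5939 ± 1619.9 and 4835 ± 963 CPM. The groups overlapped, as M2628 was below M2629 and M2630. The log2 fold change was 0.30 (standard error 0.19, edgeR adjusted p = 0.844). mt-Co1, the catalytic subunit of complex IV, which reduces oxygen to water, had 7340.4, 8210.0 and 4912 CPM against 6373, 6590.3 and 3759.5 CPM. Its means were 6821 ± 1709 and 5574 ± 1575 CPM (SD, n = 3 each) with a log2 fold change of 0.29 (standard error 0.21, edgeR adjusted p = 0.858). The other complex IV genes, mt-Co2 and mt-Co3, and both ATP synthase genes, mt-Atp6 and mt-Atp8, were in the stretch with low counts. For ATP synthase these data therefore hold no mitochondrially encoded value.

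Compared per kb of gene, the abundant genes kept nearly the same order in all libraries. mt-Cytb was first with 4709 ± 1168 CPM per kb (SD over 6 libraries), followed by mt-Co1 with 4011 ± 1049, mt-Nd1 with 3490.0 ± 1071, mt-Nd2 with 2625.7 ± 727, mt-Nd4 with 1834 ± 476, mt-Nd6 with 1448 ± 481 and mt-Nd5 with 1407 ± 379. The ribosomal RNAs came last, mt-Rnr2 with 431 ± 116 and mt-Rnr1 with 282 ± 83.5 CPM per kb. Each neighbouring pair had this order in 6 of 6 libraries except mt-Nd6 and mt-Nd5, which had it in 4 of 6. The gap between mt-Co1 and mt-Nd1 was small, with a ratio between 1.03 and 1.32. The place of mt-Co1 and mt-Nd4 depended on the length used: divided by the 1053 and 502 bases outside the copied stretch alone, their means were 5886 and 5035 CPM per kb, both above mt-Cytb. The kit used, TruSeq RNA v2, selects polyadenylated RNA, so the low level of the ribosomal RNAs and tRNAs in such libraries is no measure of the mature molecules. The same limit holds for any mRNA without a poly(A) tail, and the tails of the mRNAs, mt-Nd6 included, were not examined here.

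Relative to each other the mRNAs differed little between the genotypes. As a share of all counts of the 13 mRNAs, mt-Co1 held 26.2% ± 0.756 in miRNA-26b-/- and 26.6% ± 0.77 in miRNA-26b+/+ mice and mt-Cytb 22.7% ± 0.858 and 23.5% ± 1.81 (SD, n = 3 each). These shares do not depend on the normalization of the libraries. Of the 7 abundant mRNAs, 6 had overlapping shares, and 1, mt-Nd6, did not. mt-Nd6 held 3.40%, 3.46% and 3.38% in the knockout and 3.18%, 2.80% and 2.70% in the wild type libraries. The difference of 0.521 percentage points had the smallest p that the design allows (exact permutation test, two-sided, p = 0.1), which was 1.0 after Benjamini-Hochberg adjustment over the 13 mRNAs. With 1 library left out in turn it stayed between 0.425 and 0.663 percentage points. M2631 had a composition of its own, with 12.1% of mt-Nd1 where the other libraries had between 14.0% and 15.2%, and 25.6% of mt-Cytb where they had between 22.1% and 23.7%. Without M2631, 3 mRNAs did not overlap, mt-Nd6, which was higher in the knockout, and mt-Nd2 and mt-Co1, which were lower. Groups of 3 and 2 libraries part more often by chance than groups of 3 and 3.

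**Figure D3:**
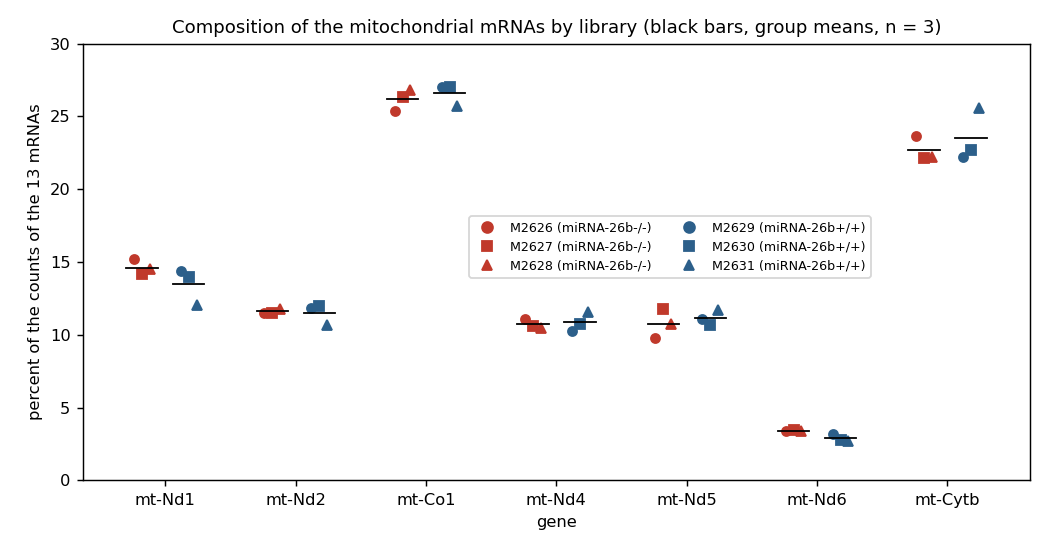
Percent of the counts of the 13 mRNAs held by each of the 7 abundant mRNAs; red points are miRNA-26b-/- and blue points miRNA-26b+/+ libraries, and black bars are group means (n = 3). Only the shares of mt-Nd6 do not overlap, at 3.38% to 3.46% against 2.70% to 3.18%, and M2631 (blue triangle) is the highest point of mt-Cytb and the lowest of mt-Nd1.

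mt-Nd6 encodes a membrane subunit of complex I and is the only mRNA on the reverse strand of the reference, which carries 9 of the 37 genes, the others being tRNAs. It had 986, 1079 and 618 CPM in the miRNA-26b-/- and 748, 682 and 395 CPM in the miRNA-26b+/+ libraries. M2628 lay below M2629 and M2630, so the CPM of the groups overlapped although each knockout library was above the wild type mean. The means were 894 ± 244 and 608 ± 188 CPM (SD, n = 3 each), with a log2 fold change of 0.56 and a standard error of 0.22 (edgeR, unadjusted p = 0.0260, adjusted p = 0.736). The log2 fold change was 0.32 without M2631 and 0.76 without M2628, and the adjusted p ran from 0.122 to 1.0 over all alternatives. mt-Nd6 lies tail to tail with mt-Nd5 and shares 14 bases with it. The ends of both genes are shown, each in its own 5′ to 3′ direction with the shared bases in capitals, since the table was counted without regard to strand and reads over these bases went to both.

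mt-Nd5, positions 1791 to 1824, chrM:13532-13565, forward strand: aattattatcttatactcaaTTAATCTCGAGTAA
mt-Nd6, positions 486 to 519, chrM:13552-13585, reverse strand: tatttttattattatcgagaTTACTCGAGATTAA

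Antisense reads anywhere in these genes could not be told from sense reads either. How far the selection of polyadenylated RNA kept mt-Nd6 was not tested. Per 100 counts of mt-Nd5, mt-Nd6 had 34.7, 29.4 and 31.4 counts in the knockout and 28.7, 26.2 and 23.1 in the wild type libraries, without overlap (exact permutation test, two-sided, p = 0.1). Per 100 counts of mt-Cytb it had 14.4, 15.6 and 15.2 against 14.3, 12.3 and 10.6, where M2626 and M2629 nearly met. mt-Te, the glutamic acid tRNA that lies directly before mt-Nd6 on the same strand, had 130.9, 143.5 and 76.1 CPM against 103.9, 78.8 and 39.1 CPM. Its log2 fold change was 0.66 (standard error 0.29, edgeR unadjusted p = 0.0382, adjusted p = 0.745). The groups overlapped, with M2628 below both M2629 and M2630 as in mt-Nd6. Per 100 counts of mt-Nd6, mt-Te had between 9.90 and 13.9 counts in the 6 libraries, overlapping between the genotypes (exact permutation p = 0.4, n = 3 each).

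The ribosomal RNAs mt-Rnr1, of the small subunit, and mt-Rnr2, of the large subunit, lie beside each other on the forward strand, parted by mt-Tv. mt-Rnr1 had 370.2, 332 and 202 CPM in the miRNA-26b-/- and 289.8, 266 and 157 CPM in the miRNA-26b+/+ libraries. mt-Rnr2 had 915, 718 and 548 CPM against 811, 699 and 402 CPM. Both were lowest in M2631 and highest in M2626, and both overlapped between the groups. The log2 fold changes were 0.34 (standard error 0.23, edgeR adjusted p = 0.857) and 0.19 (standard error 0.22, edgeR adjusted p = 0.934). For mt-Rnr2 the sign turned without M2626 (-0.01) and without M2631 (-0.06).

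A read that covered a tRNA and the gene beside it was counted for both. Of the 22, mt-Tl1 (leucine), mt-Ti (isoleucine), mt-Tw (tryptophan) and mt-Te held 82.4% of the tRNA counts. Together these 4 had 294.6, 258 and 168.6 CPM in the miRNA-26b-/- and 232.7, 221.6 and 108 CPM in the miRNA-26b+/+ libraries. mt-Tl1, which lies between mt-Rnr2 and mt-Nd1, had the narrowest range of the 4, from 19.9 to 37.9 CPM. mt-Ti had between 27.8 and 40.9 CPM in 5 libraries and 6.15 CPM in M2631. mt-Tw reached 97.6 CPM in M2626 and lay between 40.4 and 71.3 CPM in the others.

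The other 18 tRNA genes together had only 62.4, 32.9 and 70.3 CPM against 47.5, 39.1 and 26.04 CPM. Of these, 14 had any counts, and 8 of the 14 were highest in M2628, the knockout library in which the mRNAs were lowest. In M2631, the lowest library for the mRNAs, their sum was lowest too and 5 of the 14 were at 0. mt-Tm, the methionine tRNA, had 6.72, 3.67 and 12.5 CPM in the miRNA-26b-/- and 3.36, 2.99 and 1.56 CPM in the miRNA-26b+/+ libraries. Each knockout library was above each wild type library, though M2627 and M2629 nearly met (log2 fold change 1.504, standard error 0.64, edgeR unadjusted p = 0.0323, adjusted p = 0.741). mt-Tp (proline) had 3.28, 4.86 and 8.83 CPM against 2.84, 1.13 and 2.05 CPM, likewise without overlap (log2 fold change 1.48, standard error 0.66, edgeR unadjusted p = 0.0420, adjusted p = 0.752). mt-Tq (glutamine) had 2.11, 1.91 and 6.95 CPM against 1.89, 1.09 and 1.52 CPM, where only M2628 stood clear of the wild type libraries (edgeR adjusted p = 0.844). Without M2628 the log2 fold changes were 0.93 for mt-Tm and 1.03 for mt-Tp, with unadjusted edgeR p-values of 0.193 and 0.179.

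The gene of mt-Tm is printed whole, as it had the smallest p among the tRNAs, with the anticodon in capitals. Reads counted for it overlapped these 69 bases, but how many of them reached into the neighbouring genes was not tested. It lies at chrM:3845-3913 on the forward strand, directly before mt-Nd2, and shared no stretch of 25 bases with a nuclear transcript.

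mt-Tm: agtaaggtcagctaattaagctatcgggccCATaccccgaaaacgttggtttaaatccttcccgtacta

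On the opposite side, mt-Ta (alanine) had 5.12, 1.61 and 1.52 CPM in the knockout and 3.36, 6.30 and 7.48 CPM in the wild type libraries. The groups overlapped through M2626 (log2 fold change -1.12, standard error 0.65, edgeR adjusted p = 0.813). mt-Tn, mt-Tc and mt-Tl1 were the other genes with a lower mean in the knockout, with log2 fold changes of -0.63, -0.07 and -0.22. The other 9 tRNAs tested, mt-Tv, mt-Ti, mt-Tw, mt-Ty, mt-Tg, mt-Th, mt-Ts2, mt-Tl2 and mt-Tt, had log2 fold changes between 0.16 and 1.71, and none had an unadjusted p under 0.05. mt-Tf, mt-Ts1, mt-Td and mt-Tk had 0 counts in all libraries, and mt-Tr (arginine) had 46 at most. By strand of the reference, 18 of the 19 tested genes on the forward strand and 5 of the 8 on the reverse strand had the higher mean in the knockout. As reads were counted without regard to strand, this does not compare transcripts of the 2 strands.

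**Figure D4:**
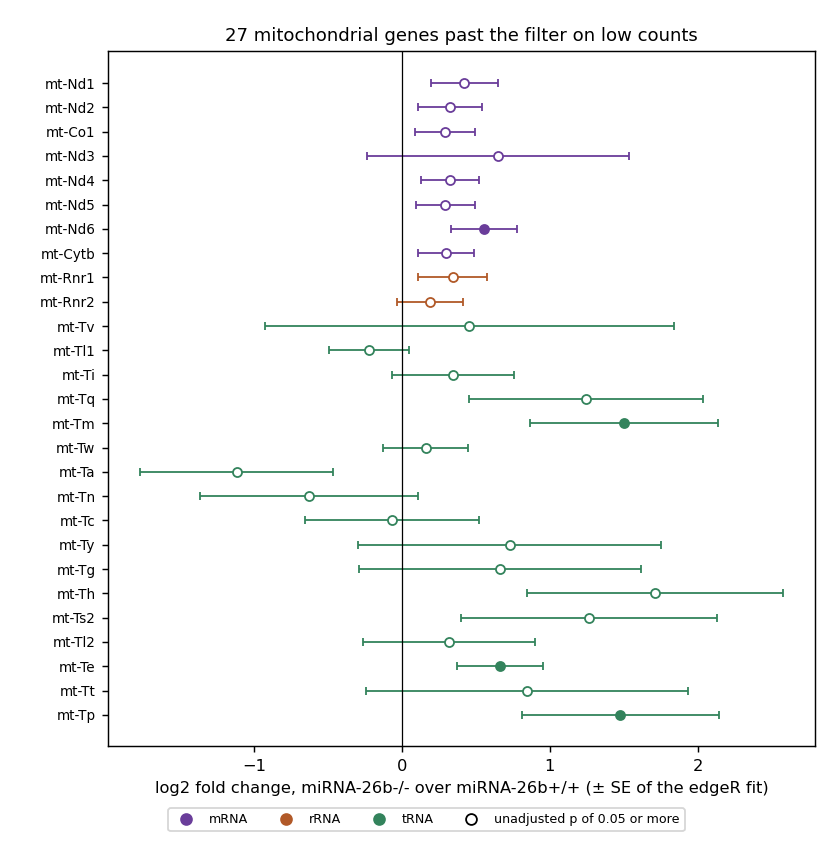
Log2 fold change (miRNA-26b-/- over miRNA-26b+/+) with its standard error for the 27 genes past the filter, mRNAs first, then ribosomal RNAs and tRNAs, from the edgeR fit over all genes; filled points have an unadjusted p under 0.05. The 7 abundant mRNAs lie between 0.29 and 0.56 with short error bars, the tRNAs between -1.12 and 1.71 with long ones, and no adjusted p is under 0.05.

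The nuclear genes that transcribe, process and copy mitochondrial DNA were examined as 4 lists in the same fit, and none of their 48 tested members had an adjusted p under 0.05. Of the transcription factors and the polymerase (8 tested), 5 had the higher and 3 the lower mean in miRNA-26b-/- mice with a median log2 fold change of 0.07, beside 0.01 over all genes, and none passed an unadjusted p of 0.05. Of the genes for processing and decay of mitochondrial RNA (21 tested), 4 passed the unadjusted level, 3 higher and 1 lower, with a median of 0.06. Of all genes tested 6.47% passed it in both directions and 3.4% higher. Fastkd3, an RNA-binding protein of mitochondria, had 7.23, 6.08 and 9.57 CPM in the knockout and 5.29, 2.40 and 1.22 CPM in the wild type libraries, without overlap (log2 fold change 1.33, standard error 0.58, edgeR adjusted p = 0.745). Prorp, listed as 1110008L16Rik, the nuclease that frees the 5′ ends of mitochondrial tRNAs, had 5.90, 3.49 and 0.638 CPM against 5.06, 9.07 and 13.4 CPM. The groups overlapped through M2626 (log2 fold change -1.48, standard error 0.61, edgeR adjusted p = 0.736).

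Of the genes for replication and nucleotide supply (11 tested), 1 was higher and 1 lower at an unadjusted p under 0.05, with a median of -0.07. Over all genes tested 6.47% passed that level in both directions. Polg, the catalytic subunit of the mitochondrial DNA polymerase, had 61.3, 54.0 and 67.3 CPM in the knockout and 36.6, 46.8 and 42.7 CPM in the wild type libraries (log2 fold change 0.53, standard error 0.20, edgeR adjusted p = 0.736). Mgme1, an exonuclease that trims replication ends, had 6.995, 5.57 and 2.77 CPM against 23.04, 8.31 and 13.3 CPM (log2 fold change -1.56, standard error 0.49, edgeR adjusted p = 0.736). Neither gene overlapped between the groups. Of the regulators of mitochondrial biogenesis (8 tested), Ppargc1b, a coactivator, had 1.17, 1.97 and 1.31 CPM against 5.48, 8.27 and 2.91 CPM, also without overlap (log2 fold change -1.85, standard error 0.70, edgeR adjusted p = 0.736). Esrrg, a nuclear receptor, was at 0 in M2626 and M2631 and at 3.52 and 3.26 CPM in the other knockout libraries, against 0.653 and 0.146 CPM. Its groups overlapped (edgeR adjusted p = 0.741), and the median of this list was -0.03.

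The nuclear subunits of the respiratory chain were compared with the mitochondrial mRNAs library by library. Of 84 listed genes 83 were tested and none had an adjusted p under 0.05. At an unadjusted p under 0.05 there was 1, Ndufs6 of complex I, beside 6.47% of all genes tested in both directions. Ndufs6 had 40.7, 47.5 and 35.3 CPM in the knockout and 33.6, 25.5 and 29.1 CPM in the wild type libraries (log2 fold change 0.49, standard error 0.23, edgeR adjusted p = 0.763). By complex, the subunits with the higher mean in the knockout were 26 of 37 for complex I, 1 of 4 for complex II, 5 of 9 for complex III, 13 of 17 for complex IV and 8 of 16 for ATP synthase. The median log2 fold changes were 0.08, -0.13, 0.08, 0.13 and -0.01. Over all 83 the median was 0.07, beside 0.32 for the 7 abundant mitochondrial mRNAs; it turned to -0.041 without M2627 and to -0.0034 without M2631.

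The summed level of the nuclear subunits was 7720.0, 8873 and 5691 CPM in the knockout and 7496, 8117 and 6401 CPM in the wild type libraries (exact permutation test, two-sided, p = 0.9, n = 3 each). M2628 and M2631, the low libraries of the mitochondrial mRNAs, were also the lowest pair for each of the 5 complexes. These 2 libraries were the lowest pair for 7 of the 7 abundant mitochondrial mRNAs, a count fixed in advance because the pair was named from the mitochondrial counts. For the nuclear subunits they were the lowest pair in 42 of the 83 (50.6%), against 8.88% of all genes tested. M2627 was the highest library for 7 of the 7 mRNAs and for 37 of the 83 subunits, beside 2720 of the 16017 genes tested.

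Markers of fat, muscle and nerve shared part of this pattern. The summed brown and white adipocyte, cardiac muscle, skeletal muscle and sympathetic neuron markers were each above their mean over the libraries in M2627 and below it in M2628 and M2631. The sympathetic neuron list was below its mean in every library except M2627. The skeletal muscle list was lower in M2629 (-2.16 on the log2 scale) than in M2628 (-1.78). In M2626, where the mitochondrial mRNAs were above their mean (0.30 on the log2 scale), the skeletal muscle list was also above (0.55), and the brown adipocyte (-0.38), white adipocyte (-0.13), cardiac (-1.01) and sympathetic neuron (-0.74) lists were below. The 9 brown adipocyte markers past the filter, of 10 listed, summed to 280.1, 592.5 and 258.5 CPM in the knockout and 364.6, 503 and 182.6 CPM in the wild type libraries, lowest in M2631 and M2628 and highest in M2627 and M2630; Cox7a1 and Cox8b stand both in this list and in that of complex IV. Ucp1, the uncoupling protein of brown fat, had 90.7, 213 and 33.2 CPM against 89.0, 114.9 and 29.7 CPM, and it was lowest in M2628 and M2631. Dio2, which activates thyroid hormone, had another order, with 35.01, 84.0 and 150.5 CPM against 95.3, 133.5 and 71.0 CPM. The 10 white adipocyte markers summed to between 1540.0 and 3771 CPM in the knockout and between 1396 and 2894 CPM in the wild type libraries, with the same libraries at the ends. Cfd, the adipokine adipsin, had 556, 1145 and 412 CPM against 445, 702 and 257 CPM, and Fabp4, a fatty acid carrier, 428, 947 and 242 CPM against 497, 658 and 248 CPM. None of the 9 brown and 10 white markers tested had an unadjusted p under 0.05 between the genotypes. The part of fat, muscle or nerve in the level of the mitochondrial genes was not tested.

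The cardiac markers summed to between 127 and 468.5 CPM in the knockout and between 166 and 475 CPM in the wild type libraries and were high in M2627 and M2630 alone. Myh6, a cardiac myosin chain, was at 0 in M2628, and Ryr2, a calcium release channel, had between 74.0 and 137 CPM in the 6 libraries. The skeletal muscle list had the library order of the mitochondrial mRNAs with M2628 and M2629 exchanged, as the white adipocyte list had it with M2626 and M2630 exchanged. The skeletal muscle markers summed to 42.9, 99.7 and 8.51 CPM in the knockout and 6.56, 13.9 and 3.74 CPM in the wild type libraries. Only M2626 and M2627 stood above the wild type libraries, as M2628 lay below M2630. At an unadjusted p under 0.05, 7 of 9 were higher in the knockout, where 3.4% of all genes tested were, and none adjusted (median log2 fold change 4.16). Over 1 CPM in 2 libraries of 1 group is enough to pass the filter, so the number called is not independent of the filter. Ckm was at 0 in M2628, and Acta1 had 9.57, 25.3 and 0.319 CPM against 3.26, 0.656 and 1.75 CPM. The Schwann cell markers summed to between 378 and 528 CPM against between 257 and 325 CPM, with 7 of 9 higher and 1 lower at the unadjusted level, beside 6.47% of all genes in both directions, and none adjusted (median 0.92); Pmp22, a protein of peripheral myelin, did not overlap between the groups. The sympathetic neuron markers summed to 93.9, 419 and 65.95 CPM against 96.2, 154.9 and 108.6 CPM. Only M2627 stood above the wild type libraries, and M2626 and M2628 lay below each of them. Of these markers 5 of 8 were higher at the unadjusted level, beside 3.4% of all genes (median 2.74), and all overlapped between the groups. Uchl1 and Stmn2, the most abundant of them, had log2 fold changes of -0.06 and 0.14.

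Markers of the vessel wall and of blood did not share the order of the mitochondrial mRNAs. The smooth muscle markers, led by Acta2 and Myh11, were highest in M2631 and lowest in M2628 (median -0.05, 0 of 10 at an unadjusted p under 0.05 in edgeR). The endothelial markers were low in M2626 and M2627, at 568 and 568.5 CPM, and highest in M2628 at 1851 CPM. Their median was -0.40, with 1 of 10 lower at the unadjusted level, beside 6.47% of all genes in both directions. Pecam1 had 184.6, 174.6 and 716 CPM against 488, 631 and 593 CPM, and Vwf had 103, 107 and 604 CPM against 389.6, 602 and 522 CPM. The fibroblast list, with Gsn and Col1a1, had its lowest sum in M2626 and its highest in M2628 (median 0.00). The leukocyte list, led by Lyz2 and Csf1r, ran from 242 to 676.5 CPM in the knockout and from 402.5 to 465 CPM in the wild type libraries, and Cd3e was at 0 in all (median -0.08). The erythroid list, with Hbb-bs and Hba-a1, ran from 87.0 to 931.5 CPM and from 355 to 634 CPM (median 0.17). None of the fibroblast, leukocyte or erythroid markers had an unadjusted p under 0.05 in edgeR. The part of any of these cell types in the mitochondrial values was not tested.

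**Figure D5:**
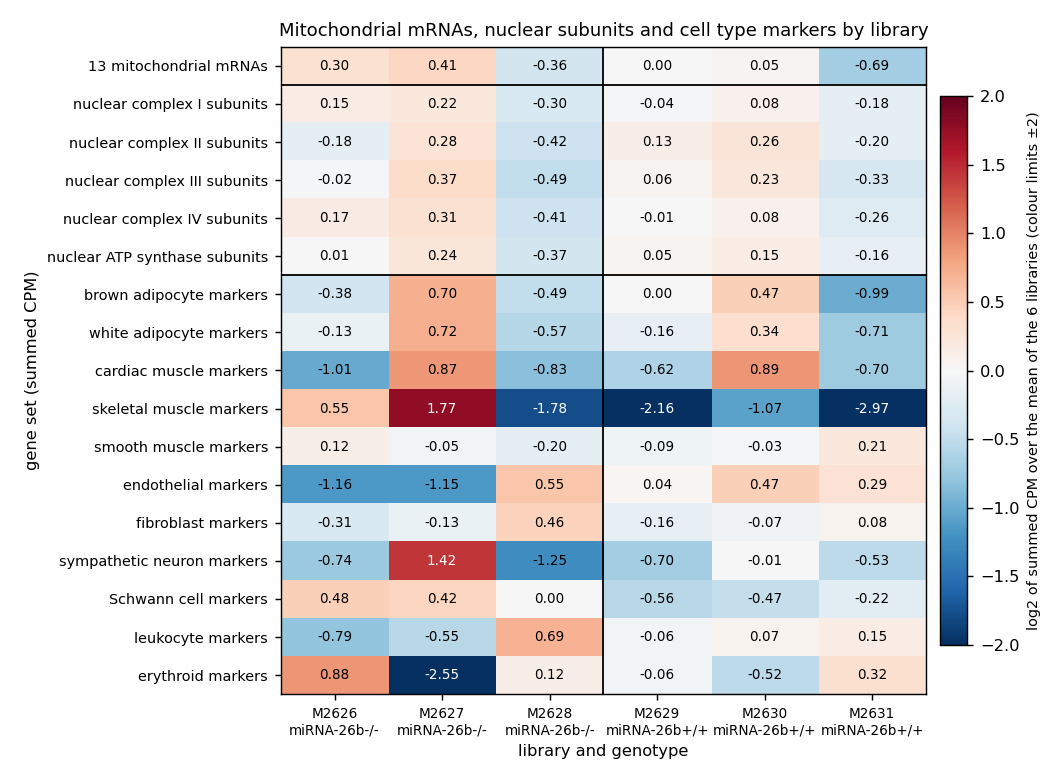
Log2 of the summed CPM over the mean of the 6 libraries for the 13 mitochondrial mRNAs, the nuclear subunits by complex and 11 lists of cell type markers, with 1 column per library and the genotypes split by a line; colours end at ±2. The mRNAs (0.30, 0.41 and -0.36 against 0.00, 0.05 and -0.69) and the 5 complexes are below the mean in M2628 and M2631 and above it in M2627. So are the adipocyte, cardiac, skeletal muscle and sympathetic neuron lists, but the sympathetic neuron list is below its mean in every library except M2627. The skeletal muscle list is lower in M2629 (-2.16) than in M2628 (-1.78). The Schwann cell list is above its mean in M2627 and lowest in M2629 (-0.56) and M2630 (-0.47), with M2628 almost at the mean (-0.001).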

How the data were processed

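Total RNA of aortic arch and thoracic aorta was sequenced after TruSeq RNA v2 library preparation. Per the file headers, the authors deposited read counts per gene name, made from STAR alignments to GRCm38 with featureCounts over exons of GENCODE release M21, without a strand option; a read over several genes counted for each of them. A second deposited table, with the same counts, log2 CPM and the authors' own fold changes and p-values, was not used.

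Genes over 1 CPM in 2 or more libraries, with a total of no less than 2 counts, were tested together (16017 genes) with edgeR 4.0.16 in R 4.3.3 (TMM, quasi-likelihood test, Benjamini-Hochberg adjustment over all genes). The edgeR default, its earlier quasi-likelihood method, was run first; the newer method (legacy = FALSE), which an earlier treatment of these data had used, was taken for the reported values after the results of both were known. CPM used TMM-corrected library totals. Shares were compared by exact permutation tests with Wilson intervals of 95%. Members were matched by sequence with the GENCODE transcripts in stretches of 25 bases. Only the quasi-likelihood test of edgeR was tried on simulated counts. The permutation tests, DESeq2, limma voom and the likelihood ratio test were not.

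Every mitochondrial gene past the filter was named. In the nuclear lists the rule took members with an adjusted p under 0.05 and the 2 largest changes with an unadjusted p under 0.05, and in the marker lists the 2 most abundant members, of which 1 is not reported here. The genes, lists and ratios were chosen with earlier results of these data known. Alternatives were library size and upper quartile scaling, DESeq2 1.42.0, limma voom 3.58.1, the likelihood ratio test, other filters, library totals without the mitochondrial genes, other denominators, and leaving out each library.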

Additional observations from a re-analysis of the deposited data

How the results depend on the processing

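No mitochondrial gene and no gene of the nuclear lists had an adjusted p under 0.05 under any alternative run. The number of mitochondrial genes at an unadjusted p under 0.05, 4 of 27, was 2 in DESeq2, 2 in limma voom, 2 by the likelihood ratio test and 2 by the earlier quasi-likelihood method of edgeR (the default, run before the newer method was chosen for the reported values, and listed as an alternative after seeing the data), and ran from 0 (without M2631) to 9 (without M2628) with 1 library left out. For the nuclear lists, 9 genes became 3 in DESeq2, 4 by the likelihood ratio test and 4 by the earlier method, and 3 to 18 with 1 library left out. Over all genes, the 1036 at the unadjusted level became 840 in DESeq2, 847 in limma voom, 795 by the likelihood ratio test and 802 by the earlier method. They became 686 without M2631 and 1692 without M2628. The 1 with an adjusted p under 0.05 became 57 in DESeq2, 3 in limma voom, 19 by the likelihood ratio test and 0 by the earlier method. With 1 library left out it became 0 to 82. The difference in the share of library counts ran from 0.231 to 0.975 percentage points with 1 library left out, and the median log2 fold change of the 7 abundant mRNAs from 0.13 to 0.52. That of the nuclear subunits ran from -0.041 to 0.23, and the number of mRNAs whose shares did not overlap from 1 to 3.

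Of 403 log2 fold changes of single genes under the alternatives, 389 kept their direction and side of the threshold for the adjusted p, and 14 changed sign, each for a gene with an unadjusted p over 0.05. With limma voom, mt-Tc was 0.26 and mt-Ty -1.65. With 1 library left out the ranges that crossed 0 were -0.15 to 1.15 for mt-Tv, -0.064 to 0.40 for mt-Rnr2, -0.14 to 0.71 for mt-Ti, -0.27 to 0.39 for mt-Tw, -0.51 to 1.04 for mt-Tc, -1.78 to 1.38 for mt-Ty, -0.18 to 0.77 for mt-Tl2 and -0.80 to 1.58 for mt-Tt; the cause was not tested. No paired analysis was possible because the labels number no replicates across the genotypes. With 3 mice a group, exact permutation tests could not go below p = 0.1, and genes with few counts, the tRNAs above all, had standard errors up to 1.38.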

Other observations

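Another pair of nuclear copies kept some counts. Gm13340 on chromosome 2 of GRCm38 shares 817 stretches of 25 bases with mt-Co1 and had 77, 75 and 34 counts in the miRNA-26b-/- and 66, 72 and 24 in the miRNA-26b+/+ libraries, lowest in M2628 and M2631. Gm13341 beside it shares 350 stretches with mt-Co2 and had 72, 155 and 119 counts against 119, 67 and 45. In all, 27 pseudogenes that share such a stretch with a mitochondrial gene had between 92 and 285 counts per library, and adding them moved the difference in the share of library counts from 0.5722 to 0.5723 percentage points.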
